A study of Rattus norvegicus with 6 samples.

Results

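The genes described here are those of the cytosolic ribosome, taken by name: every gene in the count tables whose name begins with Rpl or Rps followed by a number, p or a. Genes of the Rps6k kinases and names containing -ps were left out, and a name held by several rows was read from the row with the highest mean count. The rule found 107 rows and 84 gene names, out of 18077 rows and 17971 names in all. These were 37 large subunit genes, 29 small subunit genes, the 3 genes of the P-stalk, 14 paralogs or copies named after another ribosomal protein gene, and Rps19bp1. Rps19bp1 matched by name only, as it encodes a protein that binds Rps19 and is not part of the ribosome. Genes of the ribosome that fell outside the name rule or carried no row of their own, such as Rpl7, are not analysed here as members.

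The cytosolic ribosome translates all nuclear-encoded mRNA. Its large subunit joins amino acids, its small subunit reads the message, and the P-stalk, built from Rplp0 with Rplp1 and Rplp2, recruits the elongation factors. In mammals the mRNAs of most of these genes start with a stretch of pyrimidines called a TOP motif, and their translation is controlled together by the mTORC1 kinase pathway. In heart muscle cells, ribosome production accompanies growth of the cell.

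Polyadenylated RNA was sequenced from 6 cultures labelled as neonatal rat cardiomyocytes, prepared from pups 1 to 3 days old by a protocol that reduces fibroblasts by pre-plating and BrdU. All cultures had received palmitic acid at 500 µM for 24 h, a saturated fatty acid, and cells were harvested at 48 h. The control group Ad-GFP (3 libraries) carried an adenovirus for green fluorescent protein, and the group Ad-RNF128 (3 libraries) an adenovirus labelled as overexpressing the ubiquitin ligase RNF128. The treatment label calls the controls WT, both groups carried a virus and palmitic acid, and no group lacked either. The treatment protocol names the overexpressed gene once as RNF28 and once as RNF128.

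Library totals ran from 16352843 to 21708973 counts. One control library, Ad-GFP replicate 1, stood apart from the other 5, as its members show below, and it held 3551 rows without a read against 1190 to 2288 elsewhere. The comparison is therefore given without it (2 controls against 3) and with it (3 against 3). Leaving it out was chosen because its values were known to differ. The labels name no separate animals or cultures, so the p-values reflect the spread among these libraries alone, and that spread can be technical. The rat Rnf128 gene (ENSRNOG00000055721) held 0, 2 and 1 counts in Ad-GFP and 1, 3 and 1 in Ad-RNF128, while Rnf157, another RING ligase gene, was at 22.3, 39.6 and 40.4 CPM (counts scaled to a library total of 1000000) against 1923, 2553 and 2090. Each direction below is thus for the libraries labelled Ad-RNF128. Cardiomyocyte markers were low for that label: the summed level of 19 markers was 438, 1512 and 1528 CPM in Ad-GFP against 921, 879 and 847 CPM in Ad-RNF128. Myh6, a cardiac myosin heavy chain, was at 14.3 and 10.8 CPM in Ad-RNF128 replicates 1 and 2 and at 0.104 CPM in replicate 3. Of 17 cardiomyocyte markers tested without Ad-GFP replicate 1, 1 (Gata4) was called higher and 6 lower. The 13 fibroblast markers summed to 5027, 51701 and 53637 CPM against 20690, 18971 and 20400 CPM, with 8 of 12 tested called lower. Most of that sum was Col1a1, Col1a2 and Fn1. Col1a1 was at 1100, 17690 and 18266 CPM against 4016, 3659 and 3970 CPM. Pdgfra, Tcf21, Dcn and Lum stayed at or under 2.86 CPM in all libraries. Endothelial markers summed to 167, 25.3 and 26.5 CPM against 40.3, 39.5 and 39.3 CPM, leukocyte markers to 35.5, 17.7 and 17.0 CPM against 23.5, 23.2 and 22.7 CPM, and erythroid markers stayed at or under 0.230 CPM. Most of the endothelial sum was Egfl7 (160, 20.2 and 21.6 CPM against 32.0, 32.4 and 32.4 CPM), while Pecam1 stayed at or under 0.276 CPM. Most of the leukocyte sum was Cd14 (33.6, 16.1 and 15.7 CPM against 18.8, 18.3 and 19.2 CPM), while Ptprc stayed at or under 0.156 CPM. Called higher were 3 of 3 endothelial and 2 of 4 leukocyte markers tested, and 0 were called lower. Smooth muscle markers summed to 4935 to 6112 CPM in all 6 libraries. Skeletal myoblast markers summed to 408, 521 and 522 CPM against 256, 266 and 271 CPM, with 2 of 8 tested called higher and 5 lower. Myod1, a regulator of skeletal muscle, was at 50.5 to 63.3 CPM against 25.3 to 32.7 CPM. Des, an intermediate filament of all muscle, was at 106, 7.70 and 8.63 CPM against 69.9, 66.7 and 68.5 CPM, and Mymk, a myoblast fusion gene, at 8.93, 1.72 and 1.69 CPM against 5.09, 4.10 and 4.47 CPM. No marker found in the tables was at 0 in all libraries, and Nppa was at 0 in Ad-RNF128 replicate 3. The part of cell makeup in the results below was not tested.

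Ribosomal protein genes took a larger share of the library in Ad-RNF128 than in Ad-GFP replicates 2 and 3. The 84 genes held 3.47% and 3.78% of counts in those 2 controls and 5.21%, 5.36% and 5.03% in Ad-RNF128 replicates 1, 2 and 3. Ad-GFP replicate 1 held 14.6%, far above every other library, so the 2 groups overlapped once it was included. In bulk RNA, fewer cells of a type and less RNA per cell cannot be told apart. With the large, small and P-stalk genes taken one class at a time, the controls without replicate 1 were again below all Ad-RNF128 libraries. Large subunit genes held 1.69% and 1.84% against 2.51%, 2.59% and 2.43%, and small subunit genes 1.37% and 1.50% against 2.05%, 2.14% and 1.94%. The mitochondrial genome moved the other way, with 4.91% and 5.35% in Ad-GFP replicates 2 and 3 and 3.32%, 3.08% and 3.30% in Ad-RNF128. Its part in the rise, and that of the fibroblast markers, was not tested beyond the denominator. The difference between the group means was 1.58 percentage points. It was 1.56 with mitochondrial genes left out and 1.57 without the 50 most abundant other rows. Leaving rows out raises every share, so like differences here stand for a smaller relative rise. Without those 50 rows the shares were 4.22% and 4.66% in Ad-GFP replicates 2 and 3. In Ad-RNF128 replicates 1, 2 and 3 they were 6.03%, 6.17% and 5.84%.

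**Figure D1:**
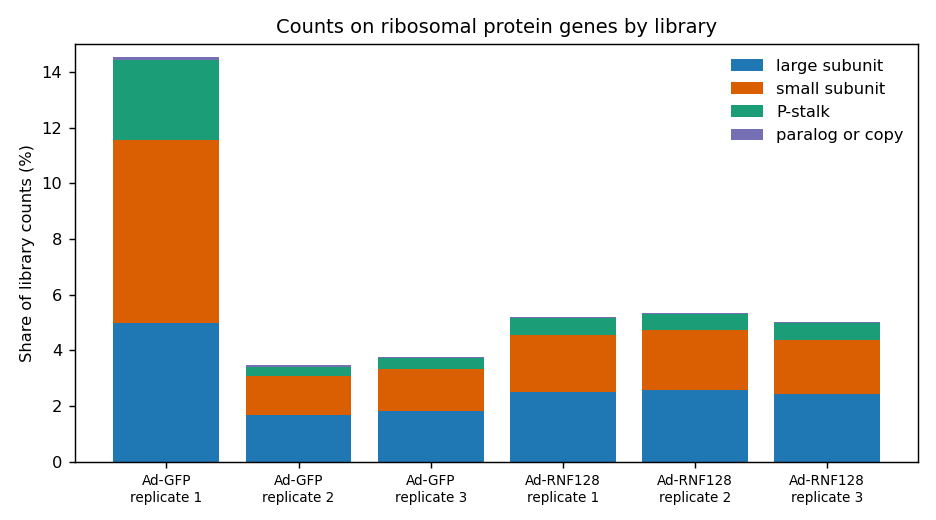
Percent of each library's counts (y axis) on large subunit, small subunit, P-stalk and paralog or copy genes, stacked, for the 6 libraries (x axis). The stacks leave out Rps19bp1. With it, the 84 genes held 14.6% in Ad-GFP replicate 1 and 3.47% and 3.78% in the other 2 controls. They held 5.03% to 5.36% in the 3 Ad-RNF128 libraries.

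Most ribosomal protein genes rose in Ad-RNF128 when Ad-GFP replicate 1 was left out, and none was called lower. The low-count filter of edgeR kept 80 of the 84 genes, and its quasi-likelihood test with Benjamini-Hochberg adjustment over 13173 genes at a threshold of 0.05 called 64 of them higher, 0 lower and 16 neither. Over all genes tested 56.9% were called, 28.9% higher and 28.0% lower. At an unadjusted p under 0.05 the members gave 66 higher and 0 lower, beside 31.3% and 30.1% of all genes. DESeq2 gave 61 and 0, and limma-voom 65 and 0. The changes were small and alike in sign: 76 of 80 log2 changes were positive, with a median of 0.43 against 0.01 over all genes, and the range was -0.21 to 1.08. Only Rpl31l4 was called with at least a 2-fold rise, whereas 8.37% of all genes met that rule. The CPM values of the groups did not overlap, with Ad-RNF128 higher, in 75 of the 80 members, and this held for 48.7% of all genes. Scaling to library totals alone, which shifts the median of all genes to 0.17, called 75 members higher and 0 lower with a median of 0.59, beside 40.7% of all genes higher and 18.3% lower.

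**Figure D2:**
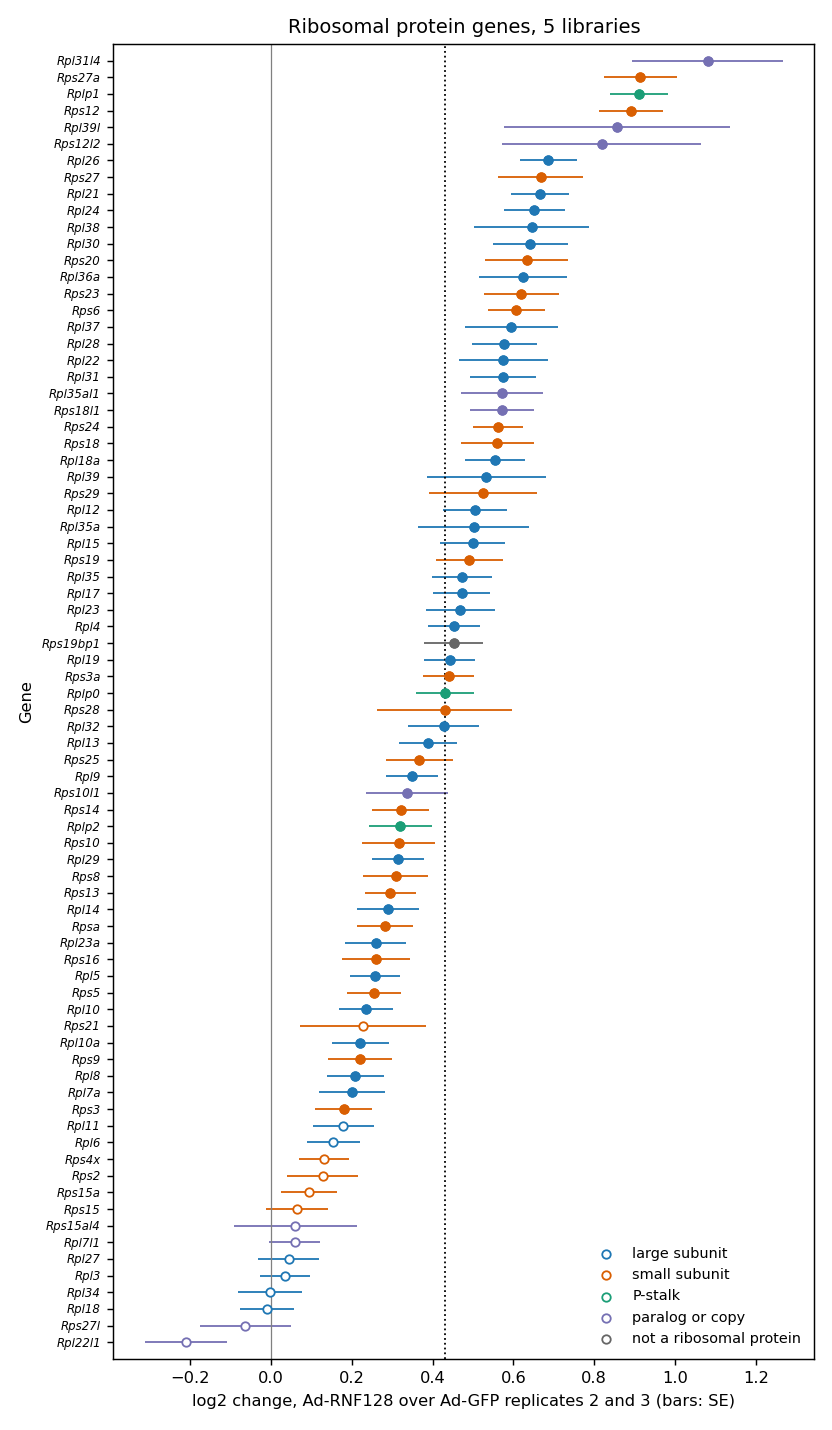
Log2 change of Ad-RNF128 over Ad-GFP replicates 2 and 3 from edgeR (axis in log2 units, bars are ± 1 SE) for tested members (y axis), ordered by change and coloured by role. Filled points had an adjusted p under 0.05 and all lie to the right of 0, the dotted line is the median of 0.43 over all 80, and the 4 lowest genes, Rpl34, Rpl18, Rps27l and Rpl22l1, have negative values.

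With all 6 libraries the comparison gave no call. The edgeR test called 0 of 80 members higher and 0 lower, and 0 at an unadjusted p under 0.05, where 5.77% of all 12863 genes had such a p, 3.36% higher and 2.41% lower. Over all genes 0.00% passed the adjusted threshold. DESeq2 and limma-voom also called 0 members, while over all genes DESeq2 called 2.18% higher and 1.27% lower. The median log2 change of the members was -1.12 against -0.02 over all genes, 65 values were negative and 15 positive, and the smallest adjusted p of a member was 0.681. The CPM groups did not overlap, with Ad-RNF128 higher, in 20 members, a share under the 30.4% of all genes, and in 0 members with Ad-RNF128 lower, beside 3.59% of all genes. The direction of the median therefore rested on Ad-GFP replicate 1.

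The P-stalk genes all rose in the 5-library comparison. Rplp1 was at 499 and 551 CPM in Ad-GFP replicates 2 and 3, at 1092, 1081 and 1124 CPM in Ad-RNF128, and at 8701 CPM in Ad-GFP replicate 1. The groups were apart without that control, which exceeded every other library many times over. The log2 change was 0.91 ± 0.07 (SE; edgeR adjusted p = 6.09e-08), the smallest p among the members. Rplp0, the stalk base, was at 2703 and 2921 CPM against 4262, 4004 and 4393 CPM, and at 17577 CPM in Ad-GFP replicate 1. Its change was 0.43 ± 0.07 (edgeR adjusted p = 0.000129), and with all 6 libraries it was -2.03 ± 1.16 (adjusted p = 0.681). Rplp2, the partner of Rplp1, was at 337 and 384 CPM against 489, 539 and 479 CPM, and rose by 0.32 ± 0.08 (edgeR adjusted p = 0.00299). Without Ad-GFP replicate 2 that call ended (0.20, adjusted p = 0.0505). Here and below, leaving out Ad-GFP replicate 2 or 3 leaves 1 control, so the spread comes from the Ad-RNF128 libraries alone and the lone control is assumed to vary like them.

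The stretch around the start of the gene is printed for 13 members with large, middle and small changes, so that genes with and without a pyrimidine run near the start can be compared. The letters come from RefSeq, build GRCr8, from 40 bases before to 20 bases from the annotated start, on the strand of the gene, with pyrimidine runs of 6 or more bases in capitals. Called higher were Rplp1 (chr8:71290853-71290912, minus strand), Rps12 (chr1:23500035-23500094, plus), Rpl26 (chr10:54109652-54109711, plus), Rps6 (chr5:106420521-106420580, minus), Rps3a (chr2:173827023-173827082, minus) and Rplp0 (chr12:46718371-46718430, minus). Not called were Rpl3 (chr7:113507971-113508030, minus), Rpl18 (chr1:105325230-105325289, plus) and Rpl34 (chr2:221962264-221962323, minus). The last 4 are pairs of a gene that was called higher and a paralog that was not: Rps27 (chr2:177964587-177964646, minus) with Rps27l (chr8:76443618-76443677, plus), and Rpl22 (chr5:168117921-168117980, plus) with Rpl22l1 (chr2:113683156-113683215, plus).
Rplp1: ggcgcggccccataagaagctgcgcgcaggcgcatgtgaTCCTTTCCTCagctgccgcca
Rps12: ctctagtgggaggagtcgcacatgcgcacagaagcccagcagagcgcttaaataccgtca
Rpl26: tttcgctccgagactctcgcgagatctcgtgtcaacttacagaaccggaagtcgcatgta
Rps6: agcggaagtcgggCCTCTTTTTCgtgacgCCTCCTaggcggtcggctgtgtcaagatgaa
Rps3a: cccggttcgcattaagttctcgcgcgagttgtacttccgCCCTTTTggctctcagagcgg
Rplp0: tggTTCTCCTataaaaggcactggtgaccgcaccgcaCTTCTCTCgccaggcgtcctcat
Rpl3: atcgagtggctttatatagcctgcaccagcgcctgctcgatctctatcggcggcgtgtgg
Rpl18: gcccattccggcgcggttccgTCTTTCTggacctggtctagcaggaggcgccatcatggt
Rpl34: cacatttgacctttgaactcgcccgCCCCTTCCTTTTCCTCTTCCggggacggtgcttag
Rps27: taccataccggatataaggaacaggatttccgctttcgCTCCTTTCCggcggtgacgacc
Rps27l: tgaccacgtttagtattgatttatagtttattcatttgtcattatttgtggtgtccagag
Rpl22: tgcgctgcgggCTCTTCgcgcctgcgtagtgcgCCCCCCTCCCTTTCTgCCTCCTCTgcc
Rpl22l1: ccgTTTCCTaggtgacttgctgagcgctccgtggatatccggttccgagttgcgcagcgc

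Runs and calls did not match gene by gene in these 13. Rps12 and Rpl26 rose and hold no capitals. Their longest runs in the 100 bases around the start were of 11 and 14 bases. That of Rps12 lies outside the printed stretch. That of Rpl26 is cut by the left edge of the stretch, which leaves too few of its bases for capitals. Rpl18 and Rpl34 were not called and have runs of 10 and 20 bases in those 100. That of Rpl18 also lies outside the printed stretch, which holds a shorter run in capitals.

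Promoters of the ribosomal protein genes held longer pyrimidine runs than promoters in general. Of the 84 members 64 matched a promoter by symbol, and Rps27a, with more than 1 locus, was left out. In the 100 bases around the start (50 on each side) the longest run had a median of 11 bases in 63 members and 7 bases over 33469 promoters. A run of at least 8 was present in 54 of 63 (85.7%), against 36.5% of all promoters. It was present in 50 of the 54 subunit genes (92.6%), and in 4 of the 9 paralogs, copies and Rps19bp1 (44.4%). On the other strand, read as purine runs, the share was 27.0% in members and 36.7% over all promoters. Either of the letters CTTTCC or CTTTTC was found on the gene's strand in 30 of 63 members (47.6%) against 7.98% of all promoters, and on the other strand in 1 member (1.59%) against 8.35%. Among tested members, 45 of 53 with a run of at least 8 were called higher (median log2 change 0.44), as were 2 of 8 with a shorter run, Rps3a and Rps19bp1 (median of the 8, 0.11). Over all genes tested 28.9% were called higher, near the share in the 8. Besides Rps19bp1, the 8 hold the paralogs Rpl22l1, Rpl7l1 and Rps27l. Rpl11 and Rpl6, also among them, lay just outside the threshold (edgeR adjusted p = 0.0524 and 0.0562). These matches are letters in a window, and whether transcripts begin in them was not measured.

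Small subunit genes ranged widely. Of 29 tested, 23 were called higher and 0 lower, with log2 changes from 0.06 to 0.91 and a median of 0.32. Rps27a, which encodes a fusion of ubiquitin and a ribosomal protein, was at 267 and 291 CPM in Ad-GFP replicates 2 and 3 and at 602, 645 and 510 CPM in Ad-RNF128. Ad-GFP replicate 1 was at 215 CPM, so all 3 controls lay below all 3 Ad-RNF128 libraries. Its log2 change was 0.91 ± 0.09 (edgeR adjusted p = 7.23e-07), and 0.57 with all 6 libraries without a call. Rps12 was at 199 and 222 CPM against 418, 468 and 417 CPM, with 1134 CPM in Ad-GFP replicate 1, and rose by 0.89 ± 0.08 (edgeR adjusted p = 2.36e-07). That control lay above all Ad-RNF128 libraries and the other 2 controls below them.

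Rps6, the small subunit protein phosphorylated by the S6 kinases, was at 772 and 750.1 CPM in Ad-GFP replicates 2 and 3 and at 1362, 1331 and 1175 CPM in Ad-RNF128. Ad-GFP replicate 1 held 10.5 CPM, or 171 counts where the other controls had 13930 and 16002, the lowest ratio of any member. All controls were below Ad-RNF128. The log2 change was 0.61 ± 0.07 (edgeR adjusted p = 4.38e-06), and 1.16 ± 1.09 with all 6 libraries. Rps3a, a protein near the mRNA exit, showed a like pattern, with 991 and 1001 CPM against 1548, 1523 and 1440 CPM and 49.3 CPM in Ad-GFP replicate 1. Its rise was 0.44 ± 0.06 (edgeR adjusted p = 3.57e-05). Rpsa, known also as a laminin receptor, was at 1383 and 1483 CPM against 1976, 1850 and 1995 CPM and rose by 0.28 ± 0.07 (edgeR adjusted p = 0.00283), with 9048 CPM in Ad-GFP replicate 1.

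Small subunit genes without a call included Rps15, Rps15a, Rps2, Rps4x and Rps21. Rps2, which lines the mRNA entry channel, was at 1121 and 1382 CPM against 1593, 1469 and 1513 CPM, and at 11882 CPM in Ad-GFP replicate 1. Its 5-library groups did not overlap in CPM, yet the change of 0.13 ± 0.09 did not pass (edgeR adjusted p = 0.227), and without Ad-GFP replicate 3 it was called at 0.32. Rps15, in the head of the subunit, was at 659 and 762 CPM against 828, 865 and 790 CPM, a log2 change of 0.06 ± 0.08 (edgeR adjusted p = 0.496), and was called at 0.20 without Ad-GFP replicate 3 (adjusted p = 0.033). Rps4x, the X-linked gene of its protein, was at 811 and 806 CPM against 1023, 968 and 965 CPM, a change of 0.13 ± 0.06 (edgeR adjusted p = 0.0833). Its name occurs in more than 1 row, and with the rows summed it was called at 0.17 (adjusted p = 0.0302). Rps28 passed narrowly, at 0.43 ± 0.17 (edgeR adjusted p = 0.0398). Its level was 94.5 and 116 CPM against 140, 211 and 122 CPM, and without Ad-RNF128 replicate 2 the change was 0.18 (adjusted p = 0.132), without Ad-GFP replicate 2 it was 0.27 (adjusted p = 0.279), while DESeq2 gave an adjusted p of 0.308.

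Large subunit genes gave 31 calls higher and 0 lower among 37, with a median log2 change of 0.45 and a highest value of 0.69, for Rpl26. Rpl36a was at 125 and 144 CPM in Ad-GFP replicates 2 and 3 and at 214, 273 and 206 CPM in Ad-RNF128, and rose by 0.62 ± 0.11 (edgeR adjusted p = 0.000196), with 558 CPM in Ad-GFP replicate 1. Rpl39, which lines the exit tunnel, was at 118 and 140 CPM against 192, 267 and 165 CPM and rose by 0.53 ± 0.15 (edgeR adjusted p = 0.00646). That call ended without Ad-GFP replicate 2 (0.39, adjusted p = 0.0765) and in DESeq2 (adjusted p = 0.122). Rpl32, close to the members' median, was at 395 and 451 CPM in Ad-GFP replicates 2 and 3, at 624, 702 and 575 CPM in Ad-RNF128 and at 2161 CPM in Ad-GFP replicate 1. The rise was 0.43 ± 0.09 (edgeR adjusted p = 0.000765). Rpl5 and Rpl11 bind the 5S rRNA and, when free, the p53 regulator Mdm2. Rpl5 was at 767 and 760 CPM against 1040, 1023 and 986 CPM and rose by 0.26 ± 0.06 (edgeR adjusted p = 0.00231), with 142 CPM in Ad-GFP replicate 1. Rpl11 was at 278 and 304 CPM against 354, 395 and 352 CPM. Its change of 0.18 ± 0.07 lay just outside the threshold (edgeR adjusted p = 0.0524) and was called with limma-voom (adjusted p = 0.0458) and, at 0.27, without Ad-GFP replicate 3 (adjusted p = 0.0143). Just inside it was Rpl7a, at 0.20 with an adjusted p of 0.0497. Rpl10, among the last proteins to join the subunit, was at 882 and 940 CPM against 1205, 1148 and 1228 CPM and rose by 0.23 ± 0.07 (edgeR adjusted p = 0.00816), a call that ended without Ad-GFP replicate 2 (0.16, adjusted p = 0.069).

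Rpl3, Rpl6, Rpl11, Rpl18, Rpl27 and Rpl34 were the large subunit genes without a call. Rpl3, which reaches to the peptidyl transferase centre, was at 1269 and 1281 CPM in Ad-GFP replicates 2 and 3 and at 1476, 1447 and 1438 CPM in Ad-RNF128. The groups were apart in CPM, and after scaling the log2 change was 0.03 ± 0.06 (edgeR adjusted p = 0.65). It was at 2583 CPM in Ad-GFP replicate 1, and the change with all 6 libraries was -1.13. Rpl18 was at 426 and 459 CPM against 481, 492 and 497 CPM, a change of -0.01 ± 0.07 (edgeR adjusted p = 0.917), and with 3404 CPM it had the highest ratio in Ad-GFP replicate 1 among large subunit genes. Rpl34 was at 174 and 181 CPM against 196, 218 and 178 CPM, which overlap, with a change of -0.00 ± 0.08 (edgeR adjusted p = 0.985). Scaled to library totals alone, both of these small values were positive, at 0.15. Rpl27 was at 355 and 399 CPM against 428, 462 and 409 CPM, a change of 0.04 ± 0.08 (edgeR adjusted p = 0.646).

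**Figure D3:**
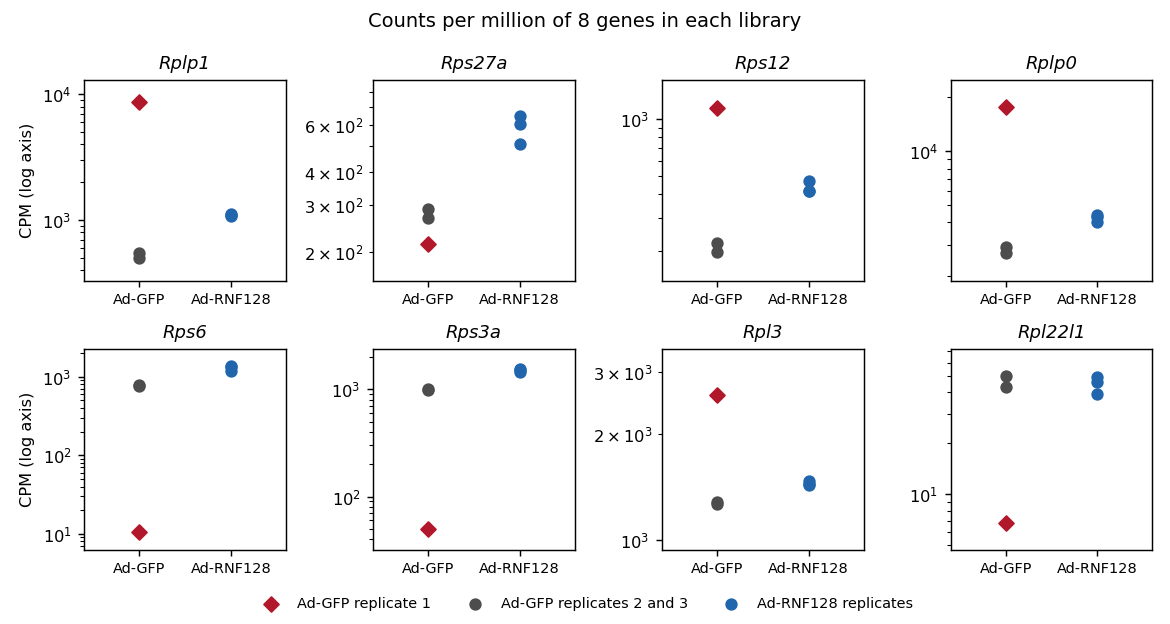
CPM (y axis, log scale, set for each panel) in each of the 6 libraries for 8 members, with Ad-GFP and Ad-RNF128 on the x axis and Ad-GFP replicate 1 as a red diamond. Rplp1, Rplp0, Rps12 and Rpl3 are higher in that control than in any other library and Rps6, Rps3a, Rps27a and Rpl22l1 lower, while the other 2 controls lie below all Ad-RNF128 libraries in every panel except Rpl22l1.

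Members differed in how much they rose, beyond the common shift. With each library scaled to the members' summed counts, 19 of 80 were called higher and 15 lower by edgeR (adjusted p under 0.05), beside 11.6% and 54.2% of all genes. Relative to that sum Rplp1 rose by 0.55, Rps27a by 0.55 and Rps12 by 0.52 on the log2 scale. The relative change of Rpl18 was -0.37, of Rpl34 -0.37, of Rpl3 -0.33 and of Rps15 -0.30, all called. The ratio of large to small subunit counts was 1.49 and 1.48 in Ad-GFP replicates 2 and 3 and 1.51, 1.47 and 1.57 in Ad-RNF128, so these groups overlapped. In Ad-GFP replicate 1 that ratio was 1.19. The P-stalk took 10.2% and 10.2% of member counts against 11.2%, 10.5% and 11.9%, and 19.6% in that control.

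Paralogs and copies gave mixed values. Of the 14, the filter kept 10, and 6 were called higher and 0 lower, with a median log2 change of 0.45. Rps27l, a paralog of Rps27 known as a p53 target, was at 107 and 110 CPM in Ad-GFP replicates 2 and 3 and at 111, 139 and 95.6 CPM in Ad-RNF128, a change of -0.06 ± 0.11 (edgeR adjusted p = 0.653). Without Ad-RNF128 replicate 2 it was called lower, at -0.21 (adjusted p = 0.0463). Rps27 itself was at 109 and 118 CPM against 191, 236 and 174 CPM and rose by 0.67 ± 0.10 (edgeR adjusted p = 7.47e-05). The count ratio of Rps27l to Rps27 was 0.983 and 0.931 in those controls, 0.582, 0.590 and 0.548 in Ad-RNF128, and 0.255 in Ad-GFP replicate 1. The 2 controls were above and replicate 1 below all Ad-RNF128 libraries.

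Rpl22l1, the paralog of Rpl22, was at 42.9 and 50.3 CPM against 46.2, 49.7 and 39.1 CPM, a log2 change of -0.21 ± 0.10 (edgeR adjusted p = 0.0915). Without Ad-GFP replicate 2 it was called at -0.34 and without Ad-RNF128 replicate 2 at -0.27. Rpl22 was at 83.4 and 93.6 CPM against 137, 175 and 129 CPM and rose by 0.58 ± 0.11 (edgeR adjusted p = 0.000402). Their ratio was 0.514 and 0.538 against 0.338, 0.284 and 0.302, and 0.0182 in Ad-GFP replicate 1. Over 9 such pairs, 4 had 5-library groups that did not overlap. The ratio was lower in Ad-RNF128 for Rps27l and Rpl22l1 and higher for Rpl39l and Rpl31l4. Each had an exact two-sided permutation p of 0.2, the smallest that 2 against 3 allows, and 0.45 after adjustment over the pairs. For single genes, the CPM groups did not overlap in 48.7% of all genes with Ad-RNF128 higher and in 23.6% with it lower. With all 6 libraries the exact permutation p of the Rps27l and Rpl22l1 pairs was 1.0.

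Copies that can share reads with a parent gene are uncertain. Rps10l1 kept a ratio to Rps10 of 0.0852 and 0.0785 in Ad-GFP replicates 2 and 3, 0.0840, 0.0844 and 0.0794 in Ad-RNF128 and 0.0843 in Ad-GFP replicate 1, and Rps18l1 to Rps18 ran from 0.147 to 0.177 in all 6 libraries. In these 2 pairs copy and parent moved alike even where Ad-GFP replicate 1 was far from the rest. Rpl31l4 had the largest log2 change of all members, 1.08 ± 0.19 (edgeR adjusted p = 0.000173), from 4.76 and 5.72 CPM to 11.6, 15.6 and 9.92 CPM, with 11.6 CPM in Ad-GFP replicate 1. Its count ratio to Rpl31 was 0.0150 and 0.0156 in those controls and 0.0206, 0.0257 and 0.0187 in Ad-RNF128, and that of Ad-GFP replicate 1, 0.0216, lay within the Ad-RNF128 range. Rpl39l was at 1.38 and 1.22 CPM against 2.51, 3.32 and 1.97 CPM and rose by 0.86 ± 0.28 (edgeR adjusted p = 0.0169). Rps12l2 was at 1.66 and 1.17 CPM against 2.69, 2.63 and 2.96 CPM and rose by 0.82 ± 0.25 (edgeR adjusted p = 0.0108). Without Ad-GFP replicate 3 both calls ended (0.79, adjusted p = 0.0898, and 0.60, adjusted p = 0.117). The call of Rpl39l also ended without Ad-GFP replicate 2 (adjusted p = 0.0506), without Ad-RNF128 replicate 2 (adjusted p = 0.0807) and in DESeq2 (adjusted p = 0.0512). Rpl7l1 was at 137 and 134 CPM against 154, 161 and 156 CPM, a change of 0.06 ± 0.06 (edgeR adjusted p = 0.446). The 4 genes left out by the filter were Rpl10l, Rpl30l1, Rplp0l1 and Rpl3l, the striated muscle form of Rpl3. Rpl3l held 5, 6 and 2 counts in Ad-GFP and 7, 6 and 1 in Ad-RNF128, and no library held more than 7 counts of any of them.

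Ad-GFP replicate 1 did not carry a uniform rise of the ribosomal protein genes. Relative to the mean of Ad-GFP replicates 2 and 3, its CPM had a median ratio of 3.03 over 80 members, from 0.0137 for Rps6 to 16.6 for Rplp1, with 60 above 1. It was the highest of the 6 libraries in 55 members, the lowest in 19 and between in 6. Over all 13173 genes it was the highest in 24.1% and the lowest in 66.0%, with a median ratio of 0.268. Small subunit genes had a median ratio of 4.81, large subunit genes of 2.16 and the P-stalk of 6.25. High ratios beside that of Rplp1 were those of Rps2 (9.49) and Rps15 (8.81). The lowest after Rps6 were Rps3a (0.0495), Rpl22l1 (0.146) and Rpl5 (0.186). In the Ad-RNF128 libraries the median ratio was 1.47, 1.55 and 1.38, and Ad-GFP replicates 2 and 3 were at 0.951 and 1.05.

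**Figure D4:**
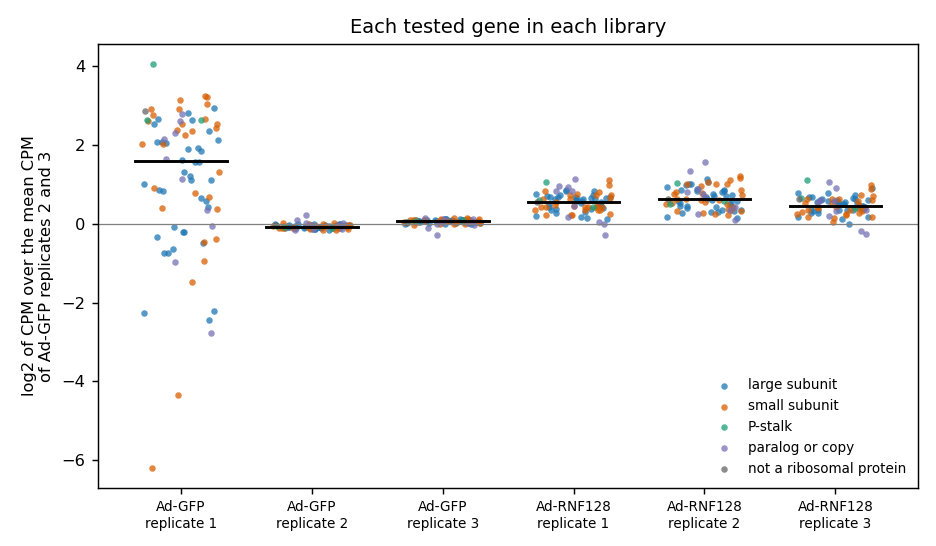
Log2 of each member's CPM over its mean CPM in Ad-GFP replicates 2 and 3 (y axis) in each of the 6 libraries (x axis), 1 point per tested member, coloured by role, with a bar at the median. As ratios, the points of Ad-GFP replicate 1 spread from 0.0137 to 16.6, whereas those of the 3 Ad-RNF128 libraries form a narrow band with medians of 1.47, 1.55 and 1.38.

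The order of the member levels differed in that control as well. Across the 80 members, Pearson's r of log2 CPM was 0.724 to 0.737 between Ad-GFP replicate 1 and the other 5 libraries, and 0.989 to 0.999 among those 5. These values are across genes, which are not independent replicates, and each pair shares 2 library totals. Separate rows with 1 gene name kept like ratios: Rpl12 had 5.81 and 6.00 in its 2 rows, and Rpl21 0.208 and 0.275. Over the 7 names with 2 well-counted rows, the larger ratio was at most 1.32 times the smaller. Read sharing between such rows was not tested.

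Genes that work with the ribosome were read from lists, in the 5-library comparison. The 5 ribosome-linked genes outside the name rule gave 3 calls higher and 1 lower, with a median log2 change of 0.23. Naca, a nascent chain chaperone subunit, rose by 0.38 ± 0.06 (edgeR adjusted p = 0.000163) and Rack1, a scaffold on the small subunit, by 0.23 ± 0.07 (adjusted p = 0.0108), while Serbp1, which binds idle ribosomes, changed by -0.26 ± 0.06 (adjusted p = 0.002). The translation factors and other genes with TOP mRNAs gave 4 higher and 3 lower of 14, with a median of 0.01. The 14 include Eef1a1, an elongation factor gene, which was near the floor. It was at 0.554 and 0.281 CPM in Ad-GFP replicates 2 and 3 and at 0.760, 0.507 and 0.831 CPM in Ad-RNF128. The reason for this low level was not tested. Tpt1, whose mRNA is a well-known TOP mRNA, rose by 0.58 ± 0.07 (adjusted p = 3.31e-06), Eif3m, an initiation factor subunit, by 0.45 ± 0.07 (adjusted p = 3.51e-05), and Nap1l1, a histone chaperone, changed by -0.49 ± 0.06 (adjusted p = 6.78e-06). The background for all these lists is the same as for the members, 28.9% higher and 28.0% lower.

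Ribosome biogenesis genes gave 12 higher and 12 lower of 52, with a median of 0.04. Eif6, which keeps the large subunit from joining too early, rose by 0.68 ± 0.07 (edgeR adjusted p = 1.36e-06) and Sbds, which helps release it, by 0.63 ± 0.08 (adjusted p = 6.3e-06). Utp20, a small subunit processing factor, changed by -0.75 ± 0.07 (adjusted p = 6.45e-07). Chaperones and importers of ribosomal proteins gave 3 higher and 2 lower of 10. Pdcd2, a chaperone of Rps2, rose by 0.74 ± 0.13 (adjusted p = 0.000221), and the importer Ipo9 changed by -0.32 ± 0.06 (adjusted p = 0.00037) and Ipo7 by -0.27 ± 0.07 (adjusted p = 0.00381).

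Regulators of TOP mRNAs and S6 kinases gave 7 higher and 7 lower of 23, with a median of -0.08. Myc, a transcription factor that drives ribosome production, was at 6.31 and 5.44 CPM in Ad-GFP replicates 2 and 3 and at 43.7, 50.8 and 52.1 CPM in Ad-RNF128, with 51.0 CPM in Ad-GFP replicate 1. The rise was 2.91 ± 0.11 (edgeR adjusted p = 2.5e-11) without that control, which lay within the range of the Ad-RNF128 libraries. Ddit4, an inhibitor of mTORC1, changed by -0.81 ± 0.07 (adjusted p = 1.92e-07), and Eif4a1, the helicase of translation initiation, by -0.48 ± 0.07 (adjusted p = 6.51e-05). Genes listed for ribosome stress or for its link to p53 gave 2 higher and 6 lower of 11, with a median of -0.25. Mdm2, the ligase that Rpl5 and Rpl11 bind, rose by 0.79 ± 0.07 (adjusted p = 2.18e-07), and Huwe1, a ubiquitin ligase, changed by -0.60 ± 0.06 (adjusted p = 1.66e-06). The stress kinase gene Eif2ak4 changed by -0.69 ± 0.07 (adjusted p = 1.65e-06). With all 6 libraries, edgeR called 0 genes of any of these lists.

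**Figure D5:**
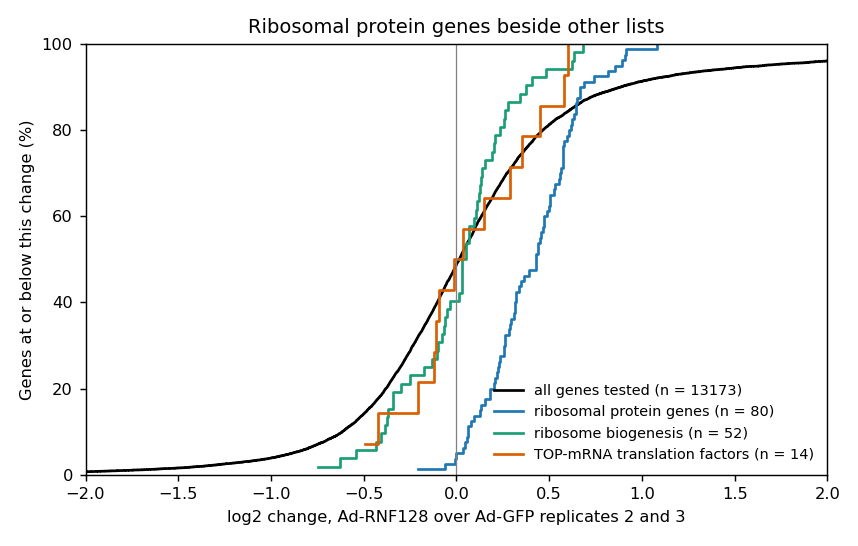
Percent of genes at or below a given log2 change of Ad-RNF128 over Ad-GFP replicates 2 and 3 (y axis, percent; x axis, log2 units from -2 to 2) for all 13173 genes, 80 ribosomal protein genes, 52 ribosome biogenesis genes and 14 TOP-mRNA translation factors. The ribosomal protein curve crosses its middle at 0.43, and those of biogenesis genes, translation factors and all genes at 0.04, 0.01 and 0.01.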

How the data were processed

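Reads of polyadenylated RNA were counted per gene in 6 libraries. Per the submitters' processing notes, the tools were HTSeq 0.13.5 and HISAT2, whose version is not listed, on build mRatBN7.2. The sources used here give no strand setting. The authors deposited counts. The deposited table of Ad-GFP replicate 1 held 1 value that was not whole and was handled like a table of expected counts, by rounding that value; how the value arose is not known. CPM (a count times 1000000 over the library total) was computed from the deposited counts. Totals of 16352843 to 21708973 set the counting error. Changes were tested with edgeR 4.0.16 in R 4.3.3 (filterByExpr, TMM, quasi-likelihood F-test, Benjamini-Hochberg adjustment over all genes tested, threshold 0.05), and the SE was derived from the log2 change and its F statistic. DESeq2 1.42.0 and limma 3.58.1 (voom) were alternatives, and the fits were tested on simulated data. Same-numbered replicates are not paired by the labels. Promoters came from RefSeq GRCr8.

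The members, the lists and the choice of libraries were made with earlier results of these data known. Named members are the 6 largest and 6 smallest changes, the 4 nearest the median, paralogs by name, the P-stalk, Rps6, Rpsa, Rps27a, Rpl5, Rpl11, filtered members, and the 4 highest and 4 lowest ratios in Ad-GFP replicate 1. From each list the rule takes the 3 genes with the smallest p. Rpl26, Rpl7a, Rps10l1, Rps18l1 and the genes named only as not called were chosen after their values were seen. A few genes are not reported here one by one and are not drawn in the plot of changes, but count in all totals.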

Additional observations from a re-analysis of the deposited data

How the results depend on the processing

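Without Ad-GFP replicate 1, 64 members were called higher and 0 lower. Leaving out each remaining library gave 48 to 66 higher, 0 to 2 lower and medians of 0.33 to 0.50. The lowest count came without Ad-GFP replicate 2, where 1 was lower, and 2 were lower without Ad-RNF128 replicate 2. Library totals alone gave a median of 0.59. Relative to the members' summed counts, 19 were higher and 15 lower, with a median of 0.064, by the construction of that scaling. With all 6 libraries, leaving out 1 at a time gave 0 to 64 higher, all 64 without Ad-GFP replicate 1, and medians of -1.48 to 0.43. Relative to the members' sum the 6-library median was 0.15.

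Scaling settings shifted all named members by nearly the same amount, so the sign changes under them belong to values smaller in size than the shift. Relative to the members' sum these included Rplp2, Rpsa, Rpl5 and Rpl10, which were called higher in the 5-library comparison. The median shift was 0.16 (0.15 to 0.16) with library totals alone and -0.37 (-0.37 to -0.36) relative to the members' sum. Library totals alone gave 0.15 for Rpl18, 0.15 for Rpl34 and 0.092 for Rps27l. Members left out of the scaling gave 0.0020 for Rpl34, and a stricter low-count filter 0.0041 for Rpl18 and 0.011 for Rpl34. Relative to the members' sum the values were -0.13 for Rpl10, -0.19 for Rpl11, -0.32 for Rpl27, -0.33 for Rpl3, -0.11 for Rpl5, -0.31 for Rpl7l1, -0.044 for Rplp2, -0.30 for Rps15, -0.23 for Rps2, -0.24 for Rps4x and -0.083 for Rpsa. Leaving out each library in turn gave -0.062 to 0.16 for Rpl27, -0.062 to 0.20 for Rps15, -0.0395 to 0.32 for Rps2, -0.087 to 0.072 for Rpl18, -0.064 to 0.078 for Rpl34 and -0.21 to 0.067 for Rps27l. In the 6-library comparison it gave -2.51 to 0.43 for Rplp0, -3.38 to 0.91 for Rplp1 and -1.47 to 0.035 for Rpl3, where the positive values are those without Ad-GFP replicate 1. The cause of the sign changes on leaving out a library was not tested. Of the values of named members under alternatives in the 5-library comparison, 475 kept sign and call, 25 gained a call, 24 lost it and 28 changed sign, 11 of them relative to the members' sum and 3 with library totals alone.

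Deviations of same-numbered samples from their group means had correlations of -0.178, 0.013 and -0.136 over 12863 genes. The Ad-GFP means include replicate 1, which stood apart, so these values cannot decide whether replicates 2 and 3 are paired. With the replicate number as a block, 67 members were called higher and 1 lower with a median of 0.43 over 5 libraries, where Ad-RNF128 replicate 1 has no partner, and Rpl18 was at 0.0095. Over 6 libraries the block gave 0 calls and a median of -0.43.

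With 2 controls the spread is pooled over both groups, and low counts limit the copies most.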

Other observations

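A subset of members stood higher in Ad-RNF128 replicate 2 than in the other 2 libraries of that group. The CPM of that replicate was at least 1.2 times the mean of replicates 1 and 3 in 17 of 80 members (21.2%), against 7.58% of all 13173 genes. The ratio was 1.61 for Rps28, 1.56 for Rps21, 1.50 for Rpl39, 1.47 for Rpl38 and 1.44 for Rps29. Rps21 was at 58.2 and 68.8 CPM in Ad-GFP replicates 2 and 3 and at 73.6, 109 and 66.0 CPM in Ad-RNF128, so its groups overlapped, and its log2 change of 0.23 ± 0.16 was not called (edgeR adjusted p = 0.227). Rpl38, a large subunit protein, was at 60.6 and 72.4 CPM against 105, 147 and 95.3 CPM, and rose by 0.65 ± 0.14 (edgeR adjusted p = 0.00138). These genes and the ratio of 1.2 were chosen after the values were seen.

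Across 61 members with a promoter and a test, Pearson's r between the longest pyrimidine run near the start and the log2 change in the 5-library comparison was 0.229. It is a description across genes of the same libraries.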
